A study of Mus musculus with 6 samples.

Results

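Costimulatory receptors and ligands of the tumour necrosis factor (TNF) superfamily and the kinases and adaptors of the noncanonical NF-kappaB pathway were followed in mouse chondrocytes with and without semaphorin 4D (Sema4D). The set was chosen by gene symbol and held 10 genes of the 24346 in the deposited table: the ligand genes Tnfsf9 and Tnfsf13b, the receptor genes Cd40, Ltbr, Tnfrsf12a and Tnfrsf9, the adaptor genes Traf2 and Traf3, and the kinase genes Map3k14 and Chuk. The cells were primary articular chondrocytes from cartilage of ICR mice at postnatal day 4, and the labels name no genotype beyond the strain. Of the 6 RNA-seq libraries, 3 came from unstimulated cells and 3 from cells given Sema4D, a ligand of plexin-B receptors. The labels give no dose, duration, control medium or number of animals per library. They also do not say that replicates were separate cultures, so each p-value below covers the spread of these 6 libraries alone, and that spread could be technical.

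In the noncanonical pathway, a complex of the adaptors TRAF2 and TRAF3 with the ubiquitin ligases cIAP1 and cIAP2 keeps the kinase NIK, encoded by Map3k14, at a low level by marking it for degradation. Receptors such as CD40, the lymphotoxin beta receptor and the BAFF receptor draw the adaptors away, NIK accumulates and activates IKK alpha, encoded by Chuk, and the Nfkb2 product is processed into a subunit that pairs with RelB. Much of this control acts on proteins, which RNA-seq does not measure. The same family carries costimulation between immune cells, as with CD40 on B cells and dendritic cells and with CD137, the Tnfrsf9 product, on activated T cells.

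The cells carried the transcripts of cartilage. All 9 chondrocyte markers examined were present, and their summed level was 14200 to 15400 FPKM (fragment counts normalized for transcript length and for the mapped fragments of the library) in control and 11400 to 12400 FPKM in Sema4D libraries, led by Col2a1. Each of the 9 was lower in Sema4D libraries (limma adjusted p under 0.05, median log2 fold change -0.6), against 22.2% of all genes tested. The 10 T and NK cell markers summed to 0.963 to 1.42 FPKM in control and 1.14 to 1.59 FPKM in Sema4D libraries. Cd3e, Cd3d, Cd3g, Cd8a and Ncr1 were at 0 in every library, while Lck was at 0.543 to 1.34 FPKM and Cd28 at 0.144 to 0.445 FPKM. Macrophage markers summed to 23.8 to 30.7 FPKM in control and 21.0 to 24.4 FPKM in Sema4D libraries, most of it Lyz2, and to 5.05 to 7.17 and 6.1 to 8.8 FPKM without Lyz2. Dendritic cell markers summed to 4.98 to 5.55 and 5.58 to 6.96 FPKM, and the 6 endothelial markers to 0.0652 to 0.242 and 0.131 to 0.307 FPKM. The 6 fibroblast markers summed to 88.2 to 92.2 FPKM in control and 83.8 to 86.5 FPKM in Sema4D libraries. Of the 5 of these tested, Pdgfra rose (log2 fold change 0.86) and Dpt (-0.95), Col14a1 (-0.72), Dpp4 (-0.65) and Thy1 (-0.15) fell. Dpp4 reached a mean of 1 FPKM, the level for testing, only through its control values. Low values fall on steps of whole fragments, which put the depth at 13400000 to 17800000 fragments per library. In a bulk sample, fewer cells of a type and less RNA per cell cannot be told apart.

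Sema4D libraries held more transcript of 7 members, by limma at an adjusted p under 0.05 on log2(FPKM + 1), with no member lower. These were Tnfrsf9, Traf2, Tnfsf9, Traf3, Map3k14, Tnfrsf12a and Ltbr, in falling order of log2 fold change. The 8 members tested averaged 1 FPKM or more across all 6 libraries. Chuk was tested and not called, and Cd40 and Tnfsf13b were under the filter. The background was broad: of 11603 genes tested, 24.5% were called higher and 22.2% lower. Among the 8 members tested, the groups did not overlap, with Sema4D higher, for the same 7, against 29.6% of all genes tested. The median log2 fold change was 0.71 over the 8 members and 0.006 over all tested genes. These member figures are descriptions, since Tnfrsf9 passed the filter only through its Sema4D values. Of all calls 52.4% were higher, against 38.8% after quantile normalization and 34.5% after rescaling each library to a sum of 1000000.

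**Figure D1:**
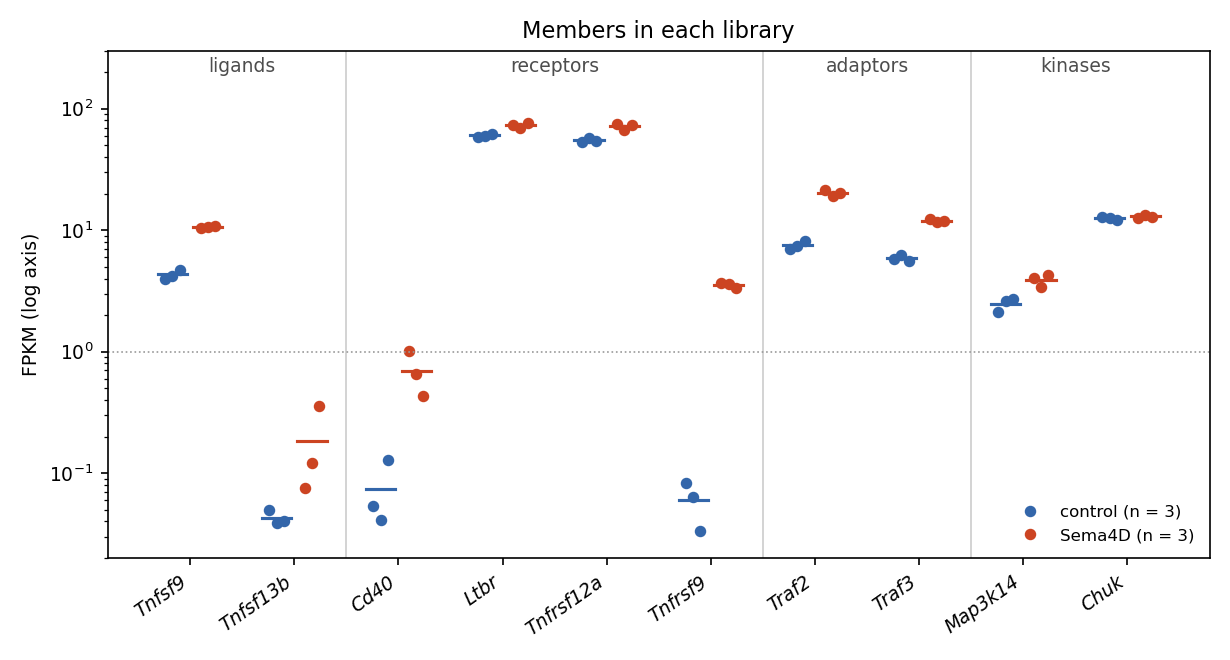
FPKM (log axis) of the 10 members in each library, control in blue and Sema4D in red, with bars at the group means and a dotted line at 1 FPKM. Ltbr and Tnfrsf12a lie highest in both groups, Tnfrsf9 moves from under 0.1 to over 3 FPKM, and the values of Chuk overlap.

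Levels per length spanned a wide range. In control libraries the order of mean FPKM was Ltbr (60.3), Tnfrsf12a (55.2), Chuk (12.5), Traf2 (7.52), Traf3 (5.86), Tnfsf9 (4.32), Map3k14 (2.47), Cd40 (0.0746), Tnfrsf9 (0.06) and Tnfsf13b (0.0428). Neighbours in that order did not overlap except among the last 3. In Sema4D libraries Traf2 (20.3) stood above Chuk (12.98) and Traf3 (12.0), and Tnfrsf9 (3.55) stood above Cd40 (0.699). The ranges of Ltbr (73.4) and Tnfrsf12a (71.8) overlapped in Sema4D libraries, as did those of Map3k14 (3.91) and Tnfrsf9.

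Tnfsf9 encodes the ligand of CD137 and lies on chromosome 17 (57105287 to 57107758, mm10). It was at 4.0, 4.22 and 4.74 FPKM in control replicates 1 to 3 and at 10.4, 10.6 and 10.9 FPKM in Sema4D replicates 1 to 3. Every Sema4D library was above every control library, and the spread within each group was small against the gap. The gene rose 2.47-fold by the ratio of mean FPKM (log2 fold change 1.13, SE 0.060, limma adjusted p = 1.47e-06). Its exons share 192 bases, 14.9% of their length, with Gm11110 on the opposite strand, which was at a mean of 2.47 FPKM in control and 5.32 FPKM in Sema4D libraries. With no strand setting stated, reads within the shared bases cannot be assigned to 1 gene of the pair.

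Tnfsf13b encodes BAFF, the survival factor of B cells (chromosome 8, 10006229 to 10036000). It was at 0.0498, 0.0385 and 0.04 FPKM in control and at 0.0747, 0.12 and 0.354 FPKM in Sema4D replicates 1 to 3. Sema4D replicate 3 held the highest value, and the groups did not overlap. By the steps of low values these were about 1, 1 and 1 fragments in control and 2, 3 and 8 in Sema4D libraries. The ratio per depth was 4.15 (95% exact interval 1.14 to 22.7, counting error only, from fragments pooled by group). With no filter on low values the log2 fold change was 0.17 and did not pass (limma adjusted p = 0.163).

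Tnfrsf9, which encodes CD137, showed the largest log2 fold change of the members (chromosome 4, 150920155 to 150946104). It was at 0.0827, 0.064 and 0.0333 FPKM in control and at 3.7, 3.62 and 3.33 FPKM in Sema4D replicates 1 to 3. Control libraries held about 2, 2 and 1 fragments and Sema4D libraries 119, 109 and 90. The ratio per depth was 60.9 (95% exact interval 25.8 to 189, counting error only). The gene rose by 2.10 on the log2(FPKM + 1) scale (SE 0.078, limma adjusted p = 1.67e-07) and ranked 120 by rise among the tested genes. It passed the filter only through its Sema4D values, so the rank is a description. With no filter the limma adjusted p was 7.81e-07. With a pseudocount of 0.1 the log2 fold change was 4.52, since the control level lies far below 1 FPKM.

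RefSeq's GRCm38.p6 promoter table, of the assembly behind mm10, gives Tnfrsf9 2 start sites. Their windows, from 250 bases before to 50 after the start, are shown because they differ in a kappaB-type motif, the kind of site that NF-kappaB dimers bind. The motif searched was GGG, any 2 bases, then TTTCC, on both strands, with matches in capitals, and it was picked with the members' changes known.

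Tnfrsf9 first start, chr4:150919905-150920204, plus strand: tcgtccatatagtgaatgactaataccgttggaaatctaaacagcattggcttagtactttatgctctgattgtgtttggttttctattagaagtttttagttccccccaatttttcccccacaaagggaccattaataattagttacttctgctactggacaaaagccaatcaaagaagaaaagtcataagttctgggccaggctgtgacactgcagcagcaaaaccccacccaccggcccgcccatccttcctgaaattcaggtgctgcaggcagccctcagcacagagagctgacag

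Tnfrsf9 second start, chr4:150927749-150928048, plus strand: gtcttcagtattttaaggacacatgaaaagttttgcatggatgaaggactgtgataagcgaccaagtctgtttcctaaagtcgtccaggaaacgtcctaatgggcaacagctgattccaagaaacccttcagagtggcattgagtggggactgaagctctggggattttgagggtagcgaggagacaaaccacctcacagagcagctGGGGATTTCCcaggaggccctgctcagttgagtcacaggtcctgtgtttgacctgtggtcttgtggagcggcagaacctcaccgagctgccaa

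The second window holds 1 match, at positions -43 to -34 from the start, and the first holds none. Of all 32851 promoter windows in the table, 1.63% hold the motif. FPKM are given per gene, so the level from each start was not analysed here. A match describes letters in a window, and binding was not measured.

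Cd40 encodes the receptor through which helper T cells license B cells and dendritic cells (chromosome 2, 165055614 to 165071654). It was at 0.0534, 0.0413 and 0.129 FPKM in control and at 1.02, 0.65 and 0.427 FPKM in Sema4D replicates 1 to 3. The groups did not overlap, but the Sema4D libraries differed from each other by more than 2-fold, with replicate 1 highest. About 1, 1 and 3 fragments stood behind the control values and 25, 15 and 9 behind the Sema4D values. The ratio per depth was 9.38 (95% exact interval 3.76 to 30.2, counting error only). With no filter the log2 fold change was 0.65 (SE 0.12, limma adjusted p = 0.00625), where 17.2% of 17461 genes were called higher. The 5 B cell markers used summed to 0 to 0.0534 FPKM in control and 0.123 to 0.295 FPKM in Sema4D libraries, with Cd79b, Ms4a1 and Pax5 at 0. Most of the sum was 1 gene, Cd79a, at 0, 0 and 0.0534 FPKM in control and 0.149, 0.107 and 0.295 FPKM in Sema4D libraries. Cd22 was at most 0.0196 FPKM in any library. Of the 10 macrophage markers, Adgre1, Fcer1g and, narrowly, Spi1 also lay higher in every Sema4D than in every control library. The 3 tested went otherwise: Lyz2 (log2 fold change -0.46) and Tyrobp (-0.70) fell, and Cd68 was not called. Tyrobp passed the filter only through its control values, and the same filter left out Adgre1, Fcer1g and Spi1. With no filter Adgre1 and Fcer1g rose, and Spi1 did not pass. The part of these markers, and of the dendritic cell markers, in the Cd40 values was not tested.

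Ltbr and Tnfrsf12a were the most abundant members and changed least among those called. Ltbr, the lymphotoxin beta receptor gene (chromosome 6, 125306571 to 125313885), was at 58.8, 59.9 and 62.3 FPKM in control and 74.1, 69.6 and 76.5 FPKM in Sema4D replicates 1 to 3. It rose 1.22-fold (log2 fold change 0.28, SE 0.041, limma adjusted p = 0.000745). Tnfrsf12a, whose product Fn14 is the receptor of TWEAK (chromosome 17, 23675445 to 23677449), was at 53.4, 57.6 and 54.6 FPKM in control and 75.1, 67.3 and 73.1 FPKM in Sema4D libraries. It rose 1.30-fold (0.37, SE 0.047, adjusted p = 0.000291). In both genes Sema4D replicate 2 was the lowest of its group and still above every control library.

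Traf2 and Traf3, adaptors that hold NIK in check, both rose. Traf2 (chromosome 2, 25517982 to 25546940), also a carrier of signals from TNF receptors to canonical NF-kappaB, was at 6.94, 7.41 and 8.21 FPKM in control and at 21.6, 19.3 and 20.1 FPKM in Sema4D replicates 1 to 3. It rose 2.70-fold (log2 fold change 1.32, SE 0.065, limma adjusted p = 8.62e-07). Traf3 (chromosome 12, 111166321 to 111267155) was at 5.74, 6.22 and 5.61 FPKM in control and at 12.3, 11.7 and 11.9 FPKM in Sema4D libraries, 2.04-fold higher (0.92, SE 0.050, adjusted p = 1.64e-06). For both adaptors the lowest Sema4D library was well above the highest control library.

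The promoter windows of Traf2 and Traf3 are shown because they are the other members' windows that hold a match to the motif searched. The match is again in capitals, and each window is written along the strand of the gene.

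Traf2, chr2:25546891-25547190, minus strand: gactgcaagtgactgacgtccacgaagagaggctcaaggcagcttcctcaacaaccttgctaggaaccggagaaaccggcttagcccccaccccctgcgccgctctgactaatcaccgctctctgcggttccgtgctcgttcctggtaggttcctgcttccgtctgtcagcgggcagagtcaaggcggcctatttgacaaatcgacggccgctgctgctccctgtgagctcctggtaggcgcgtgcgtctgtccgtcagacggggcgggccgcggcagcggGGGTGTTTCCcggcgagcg

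Traf3, chr12:111166120-111166419, plus strand: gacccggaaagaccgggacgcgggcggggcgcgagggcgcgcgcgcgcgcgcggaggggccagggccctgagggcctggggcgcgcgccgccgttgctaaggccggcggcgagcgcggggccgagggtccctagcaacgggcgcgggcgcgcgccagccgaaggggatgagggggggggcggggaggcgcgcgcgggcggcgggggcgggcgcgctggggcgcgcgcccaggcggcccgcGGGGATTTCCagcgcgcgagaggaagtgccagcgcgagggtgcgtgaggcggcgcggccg

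The match lies at positions 32 to 41 after the start in Traf2 and at -10 to -1 in Traf3. The 10 bases matched in Traf3 are those matched at the second Tnfrsf9 start, GGGGATTTCC. Those matched in Traf2, GGGTGTTTCC, differ from these in the bases that the motif leaves free. In all, 8 of the 10 members had a promoter in the table, in 10 windows, and 3 of these genes held the motif in 1 window each. Cd40 and Tnfsf9 had no window there and were not searched. Ltbr, Tnfrsf12a and Map3k14, which rose, and Chuk and Tnfsf13b held no match, which says only that these letters are not in their windows. A looser form, GGG, any 5 bases, then CC, of which the first is a case, was found in 7 of the 10 member windows. These were 1 window in each of 7 genes, Chuk among them. Of all windows in the promoter set, 50.8% held it.

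**Figure D2:**
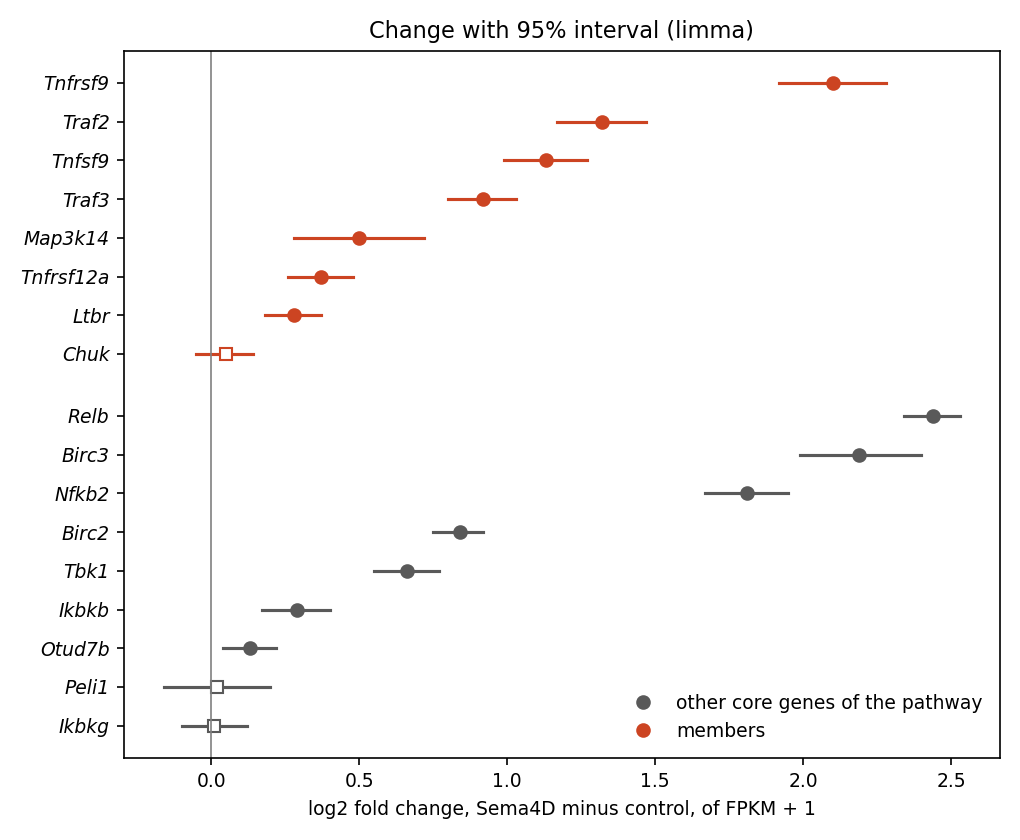
Log2 fold change (Sema4D minus control, of FPKM + 1) with its 95% interval from limma, for the 8 tested members in red and the 9 tested other core genes of the pathway in grey. Filled circles passed the threshold and open squares did not, and Tnfrsf9 (2.10) and Relb (2.44) lie farthest to the right in their sets.

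The 2 kinases differed. Map3k14, the NIK gene (chromosome 11, 103219764 to 103267401), was at 2.13, 2.6 and 2.7 FPKM in control and 4.06, 3.41 and 4.27 FPKM in Sema4D replicates 1 to 3. The groups did not overlap, and the gene rose 1.58-fold (log2 fold change 0.50, SE 0.093, limma adjusted p = 0.00266). Chuk (chromosome 19, 44073334 to 44107505) was at 12.8, 12.6 and 12.2 FPKM in control and 12.6, 13.4 and 12.9 FPKM in Sema4D libraries. Its groups overlapped, and its log2 fold change was 0.05 with a 95% interval of -0.05 to 0.14 (adjusted p = 0.382).

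Ratios taken within a library set one member against another. The log2 ratio of Map3k14 to Traf3, the kinase to the adaptor that restrains it, was -0.98 ± 0.14 in control and -1.40 ± 0.12 in Sema4D libraries (mean ± SD, n = 3, of FPKM + 1, for all ratios), a difference of -0.42. The log2 ratio of Tnfsf9 to Tnfrsf9, ligand to receptor, was 2.32 ± 0.14 and 1.36 ± 0.093, a difference of -0.97 that was -3.24 with a pseudocount of 0.1. The log2 ratio of Chuk to Ikbkb, the catalytic kinases of the IKK complex, was 0.27 ± 0.095 and 0.03 ± 0.013, a difference of -0.24. In each of the 3 ratios every Sema4D library was below every control library. The two-sided exact permutation test gave p = 0.1 for each, the smallest that 3 libraries against 3 allow, and 0.1 after adjustment over the 3 ratios, so none could pass.

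Of the other core genes of the noncanonical pathway, 9 of 10 were tested, 7 rose and none fell (median log2 fold change 0.66). Over all genes tested, 24.5% were called higher and 22.2% lower (median 0.006). Relb, the partner of the processed subunit, was at 6.41, 7.04 and 6.57 FPKM in control and 40.8, 39.7 and 41.0 FPKM in Sema4D replicates 1 to 3 (log2 fold change 2.44, SE 0.042, limma adjusted p = 1.62e-09). Nfkb2, the precursor gene, was at 12.0, 12.5 and 11.6 FPKM in control and 48.7, 41.0 and 44.3 FPKM in Sema4D libraries (1.81, adjusted p = 9.68e-08). In both the groups were far apart. Birc3 and Birc2, which encode the ubiquitin ligases that work with TRAF2 and TRAF3, both rose. Birc3 stood at 3.11 ± 0.542 FPKM in control and 17.7 ± 0.297 FPKM in Sema4D libraries (mean ± SD, n = 3, as for the genes that follow; 2.19), and Birc2 at 8.19 ± 0.118 and 15.4 ± 0.136 FPKM (0.84). Tbk1, a kinase that lowers NIK, rose from 11.4 ± 0.32 to 18.6 ± 1.03 FPKM (0.66), and Ikbkb from 10.2 ± 0.601 to 12.7 ± 0.296 FPKM (0.29).

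Otud7b, which encodes a deubiquitinase that spares TRAF3, passed narrowly. It was at 8.7 ± 0.0473 FPKM in control and 9.63 ± 0.157 FPKM in Sema4D libraries (change of 0.13 on the log2 scale, limma adjusted p = 0.0239). It missed the threshold in 7 of 14 alternatives (adjusted p from 0.0167 to 0.248 over all of them). Ikbkg, the regulatory IKK subunit gene, was at 6.69 ± 0.304 and 6.72 ± 0.0487 FPKM, and Peli1, a ubiquitin ligase gene, at 4.3 ± 0.288 and 4.39 ± 0.46 FPKM, and neither passed. Nlrp12 was under the filter, at most 0.0289 FPKM in any library.

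Partner ligands and receptors of the members were unevenly present. Tnfrsf9 and its ligand gene Tnfsf9 were both above 3 FPKM in every Sema4D library. Tnfsf12, the TWEAK gene and partner of Tnfrsf12a, was at 10.6, 10.04 and 9.93 FPKM in control and 10.2, 9.59 and 10.2 FPKM in Sema4D libraries, with overlapping groups (log2 fold change -0.03, limma adjusted p = 0.661). Cd40lg, the partner of Cd40, was listed at 0 in all 6 libraries. Of the ligand genes of Ltbr, Lta and Tnfsf14 were listed at 0 in all 6, and Ltb was listed at 0 in control and at 0.0629, 0 and 0.149 FPKM in Sema4D libraries. The BAFF receptor genes Tnfrsf13b and Tnfrsf13c were at most 0.111 and 0.0873 FPKM in any library, and Tnfrsf17 was listed at 0. An exact 0 in such a table can be a failed estimate.

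**Figure D3:**
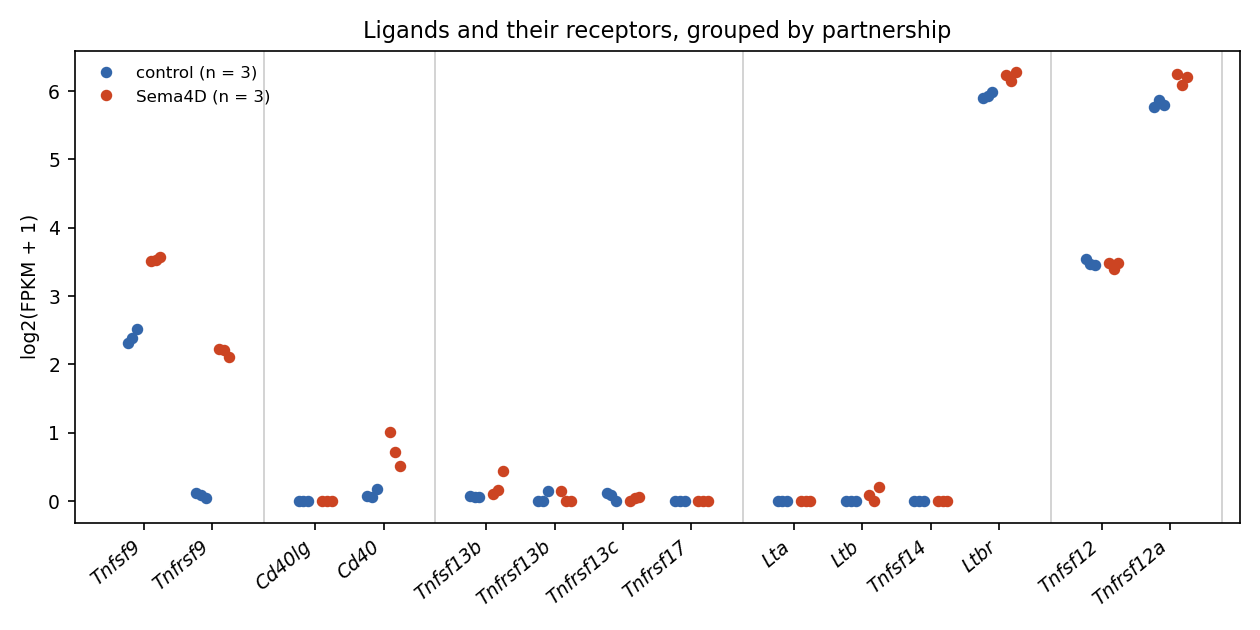
Level as log2(FPKM + 1) of each member ligand or receptor beside its partners, 1 point per library, control in blue and Sema4D in red. The Tnfsf12 and Tnfrsf12a pair is present in both groups, and the Tnfsf9 and Tnfrsf9 pair in Sema4D libraries. Cd40, Ltbr and Tnfsf13b stand beside partners at or near 0, and Tnfsf13b and, in control, Cd40 are near 0 themselves.

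Among 12 other TNF superfamily ligand genes, 3 were tested and 2 rose (median log2 fold change 2.47). For this list and the receptors below, the shares over all genes tested were 24.5% higher and 22.2% lower (median 0.006). Tnfsf15, the ligand of death receptor DR3, was at 0.0657, 0.0508 and 0.0529 FPKM in control and 6.14, 5.68 and 5.77 FPKM in Sema4D replicates 1 to 3 (log2 fold change 2.70, limma adjusted p = 1.91e-08). Tnfsf11, the RANKL gene, also rose (2.47). Both passed the filter only through Sema4D libraries, so the count of ligands and their median are descriptions. Tnfsf12 was the third ligand gene tested. Among 12 other receptor genes, 4 were tested, 2 rose and 1 fell (median 0.62). Tnfrsf1b, the second TNF receptor gene, rose (1.69, from 2.58 ± 0.345 to 10.5 ± 0.343 FPKM), as did Tnfrsf14, whose product HVEM binds the Tnfsf14 product (1.57, from 0.907 ± 0.168 to 4.67 ± 0.513 FPKM). Tnfrsf14 reached a mean of 1 FPKM only through its Sema4D values, so the count of receptors and their median are descriptions too. Tnfrsf25, which encodes DR3, fell from 3.55 ± 0.576 to 1.56 ± 0.299 FPKM (-0.83, limma adjusted p = 0.000644). Tnfrsf18, named after its values were seen, did not pass (-0.33, adjusted p = 0.139), and without Sema4D replicate 2 the list held 2 falls instead of 1.

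Of 7 other TRAF family and TRAF partner genes, all tested, 4 rose and 1 fell (median log2 fold change 0.55). For this list and the targets below, the shares over all genes tested were 24.5% higher and 22.2% lower (median 0.006). Traf3ip2, an adaptor of interleukin-17 receptors, rose from 4.27 ± 0.189 to 12.6 ± 0.49 FPKM (1.36, limma adjusted p = 1.61e-07). Traf1, which joins TRAF2 at TNF receptors, rose from 1.02 ± 0.15 to 4.52 ± 0.251 FPKM (1.45), and Tank, a TRAF-binding scaffold gene, from 12.4 ± 0.714 to 21.7 ± 2.16 FPKM (0.75). Traf5 (0.55) rose, Traf4 fell (-0.37), and Traf6 (0.15) and Traf7 (0.06) did not pass, these 4 named after their values were seen. Of 7 genes known as targets of the pathway in lymphoid tissue, 3 were tested and 2 rose (median 1.48). Cxcl12, a homing chemokine gene, rose from 84.2 ± 5.82 to 236 ± 7.03 FPKM (1.48), and Icosl, a costimulatory ligand gene, from 0.166 ± 0.00864 to 5.18 ± 0.103 FPKM (2.41). Icosl passed the filter only through its Sema4D values, so its count and the median are descriptions. Enpp2 did not pass (-0.05, adjusted p = 0.354), and the chemokine genes Cxcl13, Ccl19 and Ccl21a were listed at 0 in every control library and at most 0.208 FPKM in any library.

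**Figure D4:**
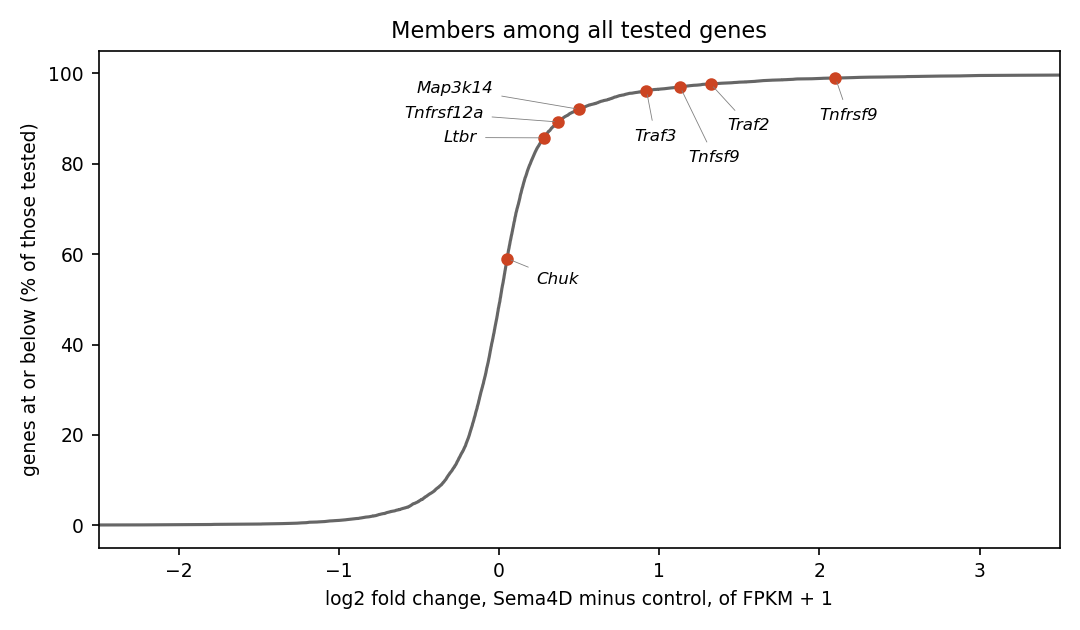
Share of the 11603 tested genes with a log2 fold change at or below each value, in percent, with the 8 tested members as red points. Chuk lies near the middle of all genes, Ltbr, Tnfrsf12a and Map3k14 on the shoulder, and Traf3, Tnfsf9, Traf2 and Tnfrsf9 on the upper tail.

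By rank of rise among the 11603 tested genes, Tnfrsf9 stood at 120, Traf2 at 269, Tnfsf9 at 347, Traf3 at 445, Map3k14 at 924, Tnfrsf12a at 1241, Ltbr at 1661 and Chuk at 4832. The core genes Relb, Birc3 and Nfkb2 stood at 93, 113 and 158. Tnfrsf9 passed the filter only through its Sema4D values, so its rank is a description.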

How the data were processed

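Total RNA was extracted, per the labels' protocols. The authors deposited FPKM, 1 column per library. The submitters' processing notes name build mm10 and, without saying what each did, Cufflinks 2.2.1, SAMtools 0.1.19, TopHat2 2.0.13 and Bowtie2 2.2.3. Annotation, strand setting and scaling between libraries are not given in the sources used here.

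Values were transformed to log2(FPKM + 1), which understates changes of low genes. The 11603 genes averaging 1 FPKM or more were fitted with limma 3.58.1 (eBayes with trend, two-sided, no replicate block) in R 4.3.3, with Benjamini-Hochberg adjustment over all of them. The fit was tested on simulated data. Depth came from whole-fragment steps of 1681 single-transcript genes over 2000 nucleotides with an assumed fragment length of 200, with 80.1% to 85.6% of these values under 0.15 from a whole count, and fragment numbers of low members follow from it. No pair of libraries shared over 0.293% of tested values. Python 3.11.15, scipy 1.17.1 and matplotlib 3.10.9 were used for the rest.

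Named genes were all members, all tested core genes, and the 3 of each other list with the smallest p, with partner genes per library. The members and lists were chosen with earlier results of these data known. In the B cell marker list 1 gene was left out and is not reported here. The 14 alternatives covered pseudocount, filter, scaling, replicate block, variance prior and leaving out each library.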

Additional observations from a re-analysis of the deposited data

How the results depend on the processing

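The calls of the 7 members that rose held in every alternative run, and Map3k14 and Tnfrsf9 were not tested with a mean of at least 5 FPKM. Columns summed to 492708 to 494123 FPKM in control and 518901 to 527492 FPKM in Sema4D libraries. With each library rescaled to a sum of 1000000, the log2 fold change was 0.20 for Ltbr and 0.29 for Tnfrsf12a. It was 0.50 for Map3k14, 0.89 for Traf3, 1.14 for Tnfsf9, 1.30 for Traf2 and 2.80 for Tnfrsf9. Chuk stayed uncalled, at -0.02 after quantile normalization and -0.03 with each library rescaled to a sum of 1000000. Among other genes that were not called, Ikbkg turned to -0.03 and -0.07 under those scalings and ranged from -0.03 to 0.03 in leave-one-out fits, Peli1 to -0.03 and -0.05 and from -0.03 to 0.09 in leave-one-out fits, and Tnfsf12 ranged from -0.04 to 0.0001 in leave-one-out fits. With a mean of at least 5 FPKM the calls higher were 0 of the other ligands, 1 of the other receptors (0 lower), 2 of the other TRAF genes and 1 of the pathway targets, because fewer genes were tested. Pathway targets had 1 fall, Enpp2, under either scaling. Other receptors had 1 to 2 falls in leave-one-out fits. The Tnfsf9 to Tnfrsf9 log2 ratio differed by -3.24 and -1.64 with pseudocounts of 0.1 and 0.5 and by -1.66 after rescaling. The replicate block gave 2638 genes higher and 2356 lower and changed no member's call, while Otud7b lost its own (adjusted p = 0.0629). Same-numbered libraries had deviations correlated at 0.14, -0.081 and -0.054, and only the libraries numbered 1 correlated best with their own number. Control replicate 2 correlated at 0.136 with Sema4D replicate 3, and control replicate 3 at 0.103 with Sema4D replicate 2. The labels do not state pairs, so the numbers were not taken as pairs. Pairing under other numbers was not tested. Members under about 0.1 FPKM rest on 1 to 3 fragments a library.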

Other observations

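Neighbouring TNF superfamily genes on the members' chromosomes, looked up after the values were seen, did not share 1 pattern. Tnfrsf1a, which encodes the first TNF receptor and starts 35838 bases from Ltbr on chromosome 6 (125349723 to 125362483, mm10), was at 74.4, 73.0 and 70.8 FPKM in control and 92.0, 93.9 and 92.2 FPKM in Sema4D replicates 1 to 3 (log2 fold change 0.35, limma adjusted p = 2.49e-05). Cd27, on the other side of Ltbr, was at most 0.34 FPKM in any library, and its groups overlapped. On chromosome 17, Tnfsf9 stood beside Cd70, which was listed at 0 in control and at 0.265, 0 and 0.105 FPKM in Sema4D libraries, and Tnfsf14, which was listed at 0 in all 6.

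Cd80, a costimulatory ligand gene of the B7 family, was at 3.63, 3.19 and 4.08 FPKM in control and 5.37, 5.36 and 4.15 FPKM in Sema4D replicates 1 to 3 (log2 fold change 0.36, limma adjusted p = 0.0207). Cd86, its relative, was at or near 0 in every library. Cd80 held most of the summed level of the dendritic cell markers, among which Cd209a was listed at 0 throughout. The macrophage markers did not move 1 way. Lyz2, the highest of them, fell from 22.4 ± 3.55 to 15.9 ± 1.27 FPKM (-0.46, limma adjusted p = 0.00769). Tyrobp, which passed the filter only through its control values, also fell (-0.70). Adgre1, under the filter, was at 0.268, 0.264 and 0.0784 FPKM in control and 0.75, 0.706 and 0.563 FPKM in Sema4D libraries, and with no filter it rose (0.48, limma adjusted p = 0.00352). Fcer1g was listed at 0.166, 0 and 0.536 FPKM in control and 0.875, 0.938 and 1.63 FPKM in Sema4D libraries, and with no filter it rose too (adjusted p = 0.0168). Spi1 was at most 0.266 FPKM in control and at least 0.266 FPKM in Sema4D libraries and did not pass (adjusted p = 0.199). Adgre1, Fcer1g and Spi1 are named after their values were seen.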
